A study of Danio rerio with 12 samples.

Results

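Expression of the chemokine genes ccl27a and cxcl12b and of the chemokine receptor gene cxcr4b was followed across 12 Affymetrix zebrafish arrays. Every array holds RNA of some 30 pooled whole larvae, taken at 96 hours post fertilisation (hpf). All probe sets that carry one of these symbols in the platform annotation were taken, which gave 3 of the 15502 probe sets that are not controls, 1 for each gene, and all 3 passed the filter on low signal. The genes were selected on their signal in these same arrays, read beside cyp1a, in earlier results, so their relation to cyp1a is given as a description, without a test. The larvae were wild-type fish from a commercial supplier, and no transgene or mutation is named. Chemicals dissolved in DMSO were added between 72 and 96 hpf. The titles name 4 groups of 3 arrays. One received the solvent (0.1% DMSO), the next 17beta-estradiol (E2, a ligand of estrogen receptors, 0.1 µM), another TCDD (a dioxin that activates the aryl hydrocarbon receptor, 1 nM), and the last both chemicals at these doses. Each array also has a description number and a letter. Letter C belongs to replicate 1 of each title (numbers W248, W249, W252 and W255) and letter B to the 8 others (the same 4 numbers, then W357, W358, W362 and W365). The series reports 2 batches without naming their arrays, and reading the letter as the batch is an inference.

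Chemokines are small secreted proteins that steer migrating cells by binding G protein-coupled receptors on them. In zebrafish, Cxcl12 made along a path guides cells that carry Cxcr4b, among them the migrating lateral line primordium and the primordial germ cells, while the scavenger receptor Ackr3b takes Cxcl12 up and clears it. In mammals, CCL27 is a CC chemokine of the skin that attracts T cells. The gene cyp1a encodes a monooxygenase that is induced through the aryl hydrocarbon receptor and serves as the standard sign of that response.

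The values are MAS5 signal, a linear intensity per probe set, and every array is named below by its title, because cyp1a contradicted several titles. Of the 12 arrays 6 had a cyp1a signal above 5000, the lowest of them 20170.0, and 6 lay below it, the highest at 414.7. The arrays with high cyp1a were those titled TCDD 1, E2 2, E2 3 and E2+TCDD 1, 2 and 3. Those with low cyp1a were titled DMSO 1, 2 and 3, E2 1, TCDD 2 and TCDD 3. The brain aromatase gene cyp19a1b, an estrogen-induced gene, did not follow this divide. Its signals were 46.3 to 296.5 where cyp1a was low and 36.1 to 267.1 where cyp1a was high. It contradicted titles as well, with 287.0 in DMSO 3 and 256.9 in TCDD 3, but 45.7 in E2 2 and 36.1 in E2+TCDD 2. These values are of the only cyp19a1b probe set that passed the filter on low signal. The other probe sets of the gene were dim, at 4.8 to 28.1 and 28.4 to 69.5. Of 14 marker genes for organs of a whole larva 10 were measured, and all 10 were above the filter on low signal. Positions in the genome are not given, since no build is named for the arrays.

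The secreted chemokine gene ccl27a was near the bottom of the array's range wherever cyp1a was low. Its signal was 32.9 in DMSO 1, 35.5 in DMSO 2, 35.3 in DMSO 3, 7.5 in E2 1, 18.8 in TCDD 2 and 35.7 in TCDD 3. Where cyp1a was high it was 141.2 in TCDD 1, 183.4 in E2 2, 176.8 in E2 3, 172.9 in E2+TCDD 1, 143.5 in E2+TCDD 2 and 163.2 in E2+TCDD 3. The lowest value beside high cyp1a was thus 3.96 times the highest value beside low cyp1a, and the medians stood at 168.0 and 34.1. Among all probe sets of an array, ccl27a ranked at percentiles 3.6 to 16.3 in the arrays with low cyp1a and 40.1 to 45.9 in the others. The low signals lay under the level of 66.5 that a probe set had to reach on average to be tested, and ccl27a passed that filter (mean log2 value 6.44 against 6.37) through the arrays with high cyp1a. Its fold change therefore rests on a denominator close to the floor of the measurement.

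The gene cxcl12b, which encodes a Cxcl12 ligand, ran the other way. Its signal was 580.8 in DMSO 1, 699.7 in DMSO 2, 628.3 in DMSO 3, 578.0 in E2 1, 633.3 in TCDD 2 and 631.4 in TCDD 3. Beside high cyp1a it was 227.7 in TCDD 1, 323.7 in E2 2, 394.9 in E2 3, 282.7 in E2+TCDD 1, 381.4 in E2+TCDD 2 and 368.5 in E2+TCDD 3. The lowest value with low cyp1a was 1.46 times the highest value with high cyp1a, so these arrays did not overlap either. In rank cxcl12b lay at percentiles 75.0 to 78.8 with low and 51.8 to 65.5 with high cyp1a, so it was well inside the measured range on every array.

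The receptor gene cxcr4b showed no such divide. Its signal was 72.5 in DMSO 1, 100.8 in DMSO 2, 107.0 in DMSO 3, 89.3 in E2 1, 92.7 in TCDD 2 and 121.3 in TCDD 3, all with low cyp1a. With high cyp1a it was 98.8 in TCDD 1, 123.4 in E2 2, 99.1 in E2 3, 92.1 in E2+TCDD 1, 92.9 in E2+TCDD 2 and 139.0 in E2+TCDD 3. The ranges overlapped, and the medians were 96.8 and 98.9. In rank cxcr4b lay at percentiles 25.7 to 37.1 with low and 31.0 to 39.5 with high cyp1a. Its signals were dim, not far above the filter level of 66.5. The overlap in this 1 probe set therefore does not show that the gene was unchanged. Among all 11626 probe sets tested, 1.15% lay higher on every array with high cyp1a, as ccl27a did, and 0.602% lower on every one, as cxcl12b did. These shares are printed as background, and nothing is read from them, since the genes were picked with that divide in view. The arrays hold RNA of whole larvae, so fewer cells of a type and less RNA per cell cannot be told apart.

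**Figure D1:**
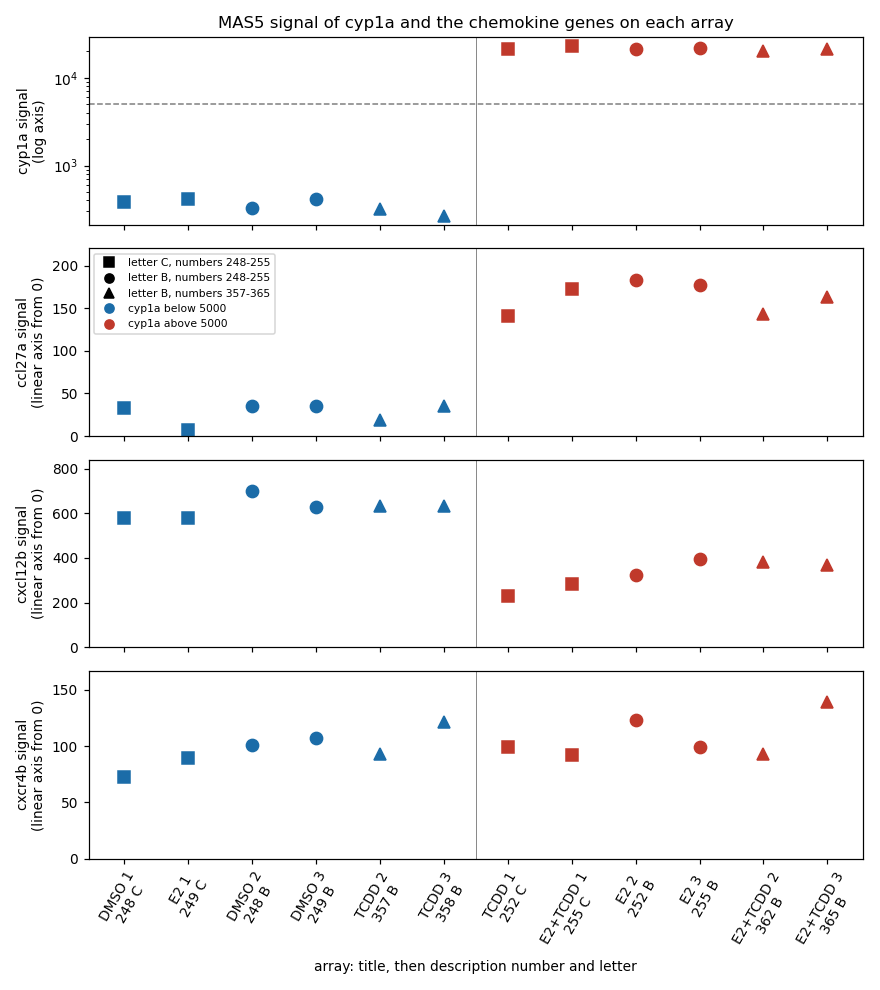
MAS5 signal (vertical axes, log for cyp1a and linear from 0 for the others) on each of the 12 arrays, with squares for letter C, circles for letter B with numbers W248 to W255 and triangles for letter B with numbers W357 to W365. Points are blue below and red above a cyp1a signal of 5000; ccl27a sits at 7.5 to 35.7 in the blue and 141.2 to 183.4 in the red arrays, cxcl12b at 578.0 to 699.7 and 227.7 to 394.9, and cxcr4b overlaps.

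The description numbers give a grouping from labels, although earlier results of these data were known when it was chosen. Numbers W248, W249, W252 and W255 occur once in each letter, which makes 2 arrays per number, and in letter C they carry the titles DMSO, E2, TCDD and E2+TCDD. Arrays with one number may come from 1 RNA, so their spread may be technical. By number, ccl27a had a mean signal of 34.2 ± 1.84 for W248, 21.4 ± 19.7 for W249, 162.3 ± 29.8 for W252 and 174.9 ± 2.76 for W255 (SD, n = 2 each). The order of the 4 means was W255, W252, W248 and W249, and neither W255 and W252 nor W248 and W249 differed beyond their spread. For cxcl12b the means were 640.2 ± 84.1 for W248, 603.1 ± 35.6 for W249, 275.7 ± 67.9 for W252 and 338.8 ± 79.3 for W255. Here W248 and W249 lay within their spread of each other, as did W255 and W252. The gap between W249 and W255 was larger than either spread. It is the cyp1a divide on which the genes were chosen, as for ccl27a, so it adds no support. For cxcr4b the means were 86.65 ± 20.0, 98.15 ± 12.5, 111.1 ± 17.4 and 95.6 ± 4.95 in the same order of numbers, and no neighbouring pair in the order of means differed beyond its spread.

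Numbers W252 and W255 set against W248 and W249 follow cyp1a exactly, so for the 3 genes this contrast is described only. On the log2(signal + 16) scale ccl27a was higher by 2.14 (SE 0.20), a 4.4-fold difference, and cxcl12b was lower, with a difference of -1.0 (SE 0.10), that is 2.0-fold lower. The value for cxcr4b was 0.14 (SE 0.15). Over all 11626 probe sets the limma test called 201 higher and 99 lower in this contrast, 2.58% together, and the median difference was -0.012. The total of 300 fell to 156 without the array titled DMSO 1, 146 without E2 1 and 154 without DMSO 3.

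Single pairs of arrays show how far these differences varied. For cxcl12b the log2 difference was -1.29 for W252 against W248 and -0.99 for W255 against W249 in letter C, and -1.08 and -0.65 for the same numbers in letter B. For ccl27a the 4 values were 1.68, 3.01, 1.95 and 1.91, of which 3.01 rests on the signal of 7.5 in E2 1. The second set of numbers in letter B gave pairs outside that grouping, matched by the replicate number in the title. There ccl27a was higher by 2.2 in W362 than in W357 and by 1.79 in W365 than in W358, while cxcl12b differed by -0.71 and -0.75. In all 6 pairs ccl27a was higher and cxcl12b lower on the array with high cyp1a. This follows from the lack of overlap described above and adds no support of its own. For cxcr4b the 6 values ran from -0.1 to 0.38, with both signs.

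Numbers W249 and W255 set against W248 and W252 parted the arrays by cyp19a1b and not by cyp1a, so this contrast did not enter the choice of the genes. Only cyp19a1b passed over all probe sets (2.09, SE 0.14, limma adjusted p = 3.64e-06, n = 4 arrays a side), which is 0.0086% of those tested. An unadjusted p under 0.05 was found for 400. The grouping was known from earlier results of these data, so the p of cyp19a1b is no independent evidence. Arrays of one number may share RNA, so the arrays of a side may not be separate pools. None of the 3 chemokine genes passed. The log2 difference was -0.21 for ccl27a (95% interval -0.63 to 0.21), 0.10 for cxcl12b (-0.11 to 0.31) and -0.01 for cxcr4b (-0.32 to 0.31), each with a limma adjusted p = 0.999. These intervals still allow a change of cxcl12b of up to 1.24-fold upward and of ccl27a down to 0.64-fold.

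The interaction between the numbers asked whether the difference between W252 and W248 was the same as that between W255 and W249. The limma fit called 0 probe sets (0%), while 596 had an unadjusted p under 0.05. For cxcl12b the interaction was 0.36 (95% interval -0.05 to 0.78, limma adjusted p = 0.936). Its signal was higher in W255 than in W252 by 1.24 times in letter C and by 1.22 times in letter B, while W249 differed from W248 by a log2 value of -0.01 within C and -0.15 within B. In the other number series W365 and W362 had a ratio of 0.97, so that small step was not seen there. The interaction was 0.64 for ccl27a (-0.20 to 1.48, limma adjusted p = 0.948), which became 0.15 without E2 1, the array with a signal of 7.5, and 1.13 without DMSO 3, and -0.34 for cxcr4b (-0.97 to 0.29, limma adjusted p = 0.949).

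The second number series (W357 to W365) was compared with the first (W248 to W255) among the 8 letter B arrays, 4 against 4. Each series holds 2 arrays on either side of the cyp1a divide, and the series coincide with the titles, DMSO and E2 in the first and TCDD and E2+TCDD in the second, so these cannot be told apart. The mean signal of cxcl12b was 511.6 ± 180.7 in the first and 503.6 ± 148.7 in the second series (SD, n = 4 each). For cxcr4b the means were 107.6 ± 11.1 and 111.5 ± 22.7, and for ccl27a 107.8 ± 83.6 and 90.3 ± 73.6. The wide spread of ccl27a and cxcl12b within a series is the cyp1a divide itself. The differences did not pass, at 0.00 for cxcl12b (95% interval -0.53 to 0.53, limma adjusted p = 0.999), 0.03 for cxcr4b (-0.28 to 0.34, limma adjusted p = 0.946) and -0.25 for ccl27a (-1.52 to 1.03, limma adjusted p = 0.889). Two-sided exact permutation tests over the 70 splits gave p = 1.0, 0.886 and 0.571, where 0.0286 is the smallest value that 70 splits allow. For ccl27a and cxcl12b that value was out of reach, since each series holds arrays from both sides of the divide. The same divide widens their limma intervals, so nothing is concluded for these genes from the lack of a call. Over all probe sets 52, or 0.447%, were called between the series, 16 higher and 36 lower, and leaving out 1 array gave 11 (without DMSO 3) to 38 (without TCDD 3).

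**Figure D2:**
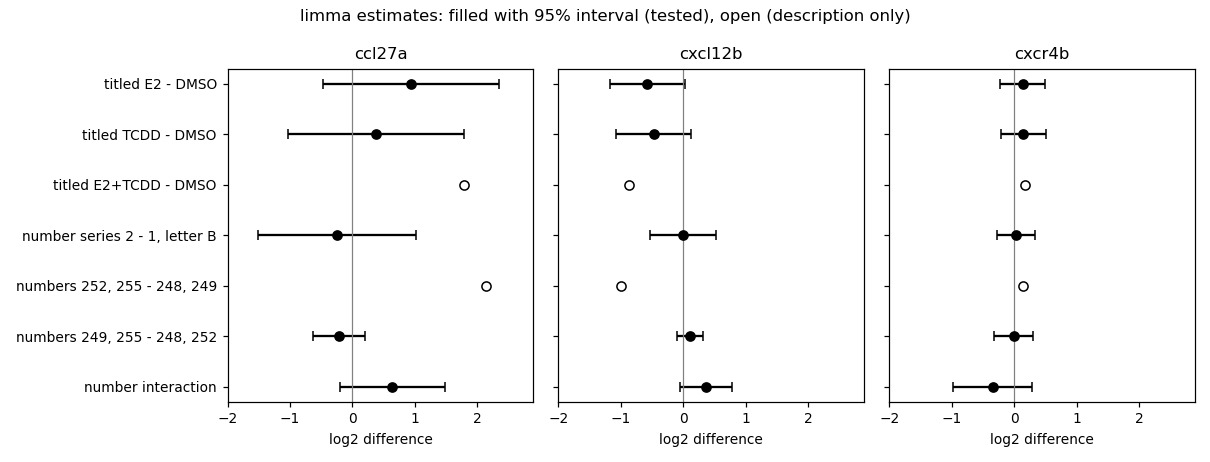
Log2 differences (horizontal axis) of ccl27a, cxcl12b and cxcr4b for 7 contrasts (vertical axis), filled with their 95% interval from limma where tested and open where given as a description. The open points for numbers W252 and W255 against W248 and W249 lie at 2.14, -1.0 and 0.14, and the interval for the number series spans 0 for each gene.

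The groups by title hold arrays from both sides of the cyp1a divide, apart from DMSO and E2+TCDD. Those titles each mix arrays with low and high cyp19a1b. The titles E2 and TCDD carry part of the divide that the genes were chosen on, which also widens the spread. Nothing is therefore concluded from the limma p of ccl27a and cxcl12b for these titles. The arrays titled E2 had a mean ccl27a signal of 122.6 ± 99.7 against 34.6 ± 1.4 in those titled DMSO (SD, n = 3 each). Within letter C ccl27a differed by a log2 value of -1.06 and within letter B by 1.93, where cyp1a differed by 0.12 and 5.79. In the fit it was 0.94 (SE 0.66, limma adjusted p = 0.814) and did not pass. For cxcl12b the E2 arrays had 432.2 ± 131.2 against 636.3 ± 59.8, with -0.01 in letter C and -0.86 in letter B, and -0.58 in the fit (SE 0.28, limma adjusted p = 0.746). The limma fit called 0 probe sets between these titles (0%), and 770 had an unadjusted p under 0.05. Without the array titled E2 1 the fitted values were 2.18 for ccl27a and -1.02 for cxcl12b, and without E2 2 they were 0.43 and -0.33. Letter B alone, and the fit without E2 1, set E2 arrays that all have high cyp1a against DMSO arrays that all have low cyp1a, which is the divide the genes were chosen on, so their values are descriptions without a p.

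The arrays titled TCDD differed between letters in the opposite sense. For ccl27a the log2 difference from DMSO was 1.68 within C and -0.28 within B, beside 5.73 and -0.32 for cyp1a, and 0.38 in the fit (SE 0.66, limma adjusted p = 0.896). For cxcl12b it was -1.29 and -0.07, and -0.48 in the fit (SE 0.28, limma adjusted p = 0.62). Without the array titled TCDD 1 the fitted values turned to -0.58 for ccl27a and 0.01 for cxcl12b. Again limma called 0 probe sets (0%), and 1114 had an unadjusted p under 0.05. The comparison of E2+TCDD with DMSO, in which cyp1a parts every array, is a description only, with 0.0602% of all probe sets called. The mean signal of ccl27a was 159.9 ± 15.0 against 34.6 ± 1.4, and within letters it was higher by 1.95 in C and 1.72 in B. That of cxcl12b was 344.2 ± 53.6 against 636.3 ± 59.8, with -1.0 in C and -0.8 in B. The receptor gene cxcr4b had a mean of 93.4 ± 18.4 in the arrays titled DMSO, 103.9 ± 17.6 in those titled E2, 104.3 ± 15.1 under the title TCDD and 108.0 ± 26.8 under E2+TCDD. It passed in neither title comparison that was tested (0.14 for E2 and 0.14 for TCDD, limma adjusted p = 0.901 and 0.825).

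A feature shared by all 3 genes was a higher signal in letter B than in letter C at the same number. For cxcl12b the ratio of B to C was 1.2 for W248, 1.09 for W249, 1.42 for W252 and 1.4 for W255. For cxcr4b it was 1.39, 1.2, 1.25 and 1.08, and for ccl27a 1.08, 4.71, 1.3 and 1.02. Among all probe sets tested 22.7% were higher in letter B at every number and 22.4% were lower at every one, so such an offset was common. The difference between letters was not tested for these genes. For cxcl12b at W252 and W255 it exceeded the ratio between the 2 numbers within a letter (1.24 in C and 1.22 in B).

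Other chemokine and receptor genes were read beside these. Of 13 genes of the family with a probe set, 10 were not among the 3, and 9 of them were above the filter. In the contrast of W252 and W255 with W248 and W249, where 1.73% of all probe sets were called higher and 0.852% lower, 2 of the 9 rose and 1 fell. The median difference over their probe sets was 0.06, against -0.012 over all probe sets. In each of the other 6 contrasts 0 of the 9 passed by limma. In the contrasts by title and between number series, arrays from both sides of the cyp1a divide widen the spread for genes that follow it. For E2+TCDD against DMSO, which parts every array by cyp1a, cyp1a itself did not pass (5.79, SE 1.48). The lack of calls in these contrasts does not show that the 9 genes were unchanged.

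The gene that fell was cxcl12a, the paralog of cxcl12b that makes the ligand on the path of the lateral line primordium. Its brighter probe set had signals of 965.3 and 929.2 for W248, 780.0 and 921.0 for W249, 639.4 and 490.8 for W252, and 547.1 and 542.4 for W255, letter C before letter B. It fell by 0.68 on the log2 scale (SE 0.10, limma adjusted p = 7.36e-04). Arrays of one number may share RNA, so the arrays of a side may not be separate pools. The contrast also follows cyp1a and was known from earlier results. The limma p of cxcl12a, and those of ccl44 and ackr3b below, are therefore no independent evidence. The second probe set fell by 0.49 (SE 0.10, limma adjusted p = 0.0129), but missed the threshold without any one of the arrays titled DMSO 1, DMSO 2, DMSO 3, E2 1 or E2+TCDD 1 (limma adjusted p from 0.0571 to 0.115). In the second number series, outside that fit, the brighter probe set had 950.7 and 899.5 for W357 and W358 and 606.4 and 524.5 for W362 and W365. Both probe sets were lower on every array with high cyp1a than on any with low cyp1a, as were 0.602% of all probe sets tested.

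The gene ccl44, a CC chemokine gene, rose by 0.74 (SE 0.11, limma adjusted p = 7.94e-04, with the limit given above). Its signal ran from 178.7 to 225.0 on the arrays with low cyp1a and from 309.8 to 444.4 on those with high cyp1a, without overlap. Of all probe sets tested 1.15% were higher in this way. The scavenger receptor gene ackr3b rose by 0.40 (SE 0.09, limma adjusted p = 0.0252), with 389.1 to 554.1 and 463.7 to 800.5, which overlap. Its call was lost when any 1 of the 8 arrays was left out (limma adjusted p from 0.0516 to 0.226). For cxcr4a, the paralog of cxcr4b, the difference was 0.43 (SE 0.16, limma adjusted p = 0.236), with signals of 86.7 to 117.6 and of 111.4 to 187.1. The remaining genes tested, cxcl14, ccl34b.1, ccl19a.1, ccl25b and cxcr3.3, differed by -0.26 to 0.14 and did not pass. Without the letter in the fit none of ccl44, ackr3b and cxcl12a passed (limma adjusted p from 0.061 for ccl44 to 0.982 for ackr3b). The gene ccl38a.5, with signals from 4.8 to 27.0, was too dim to test.

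**Figure D3:**
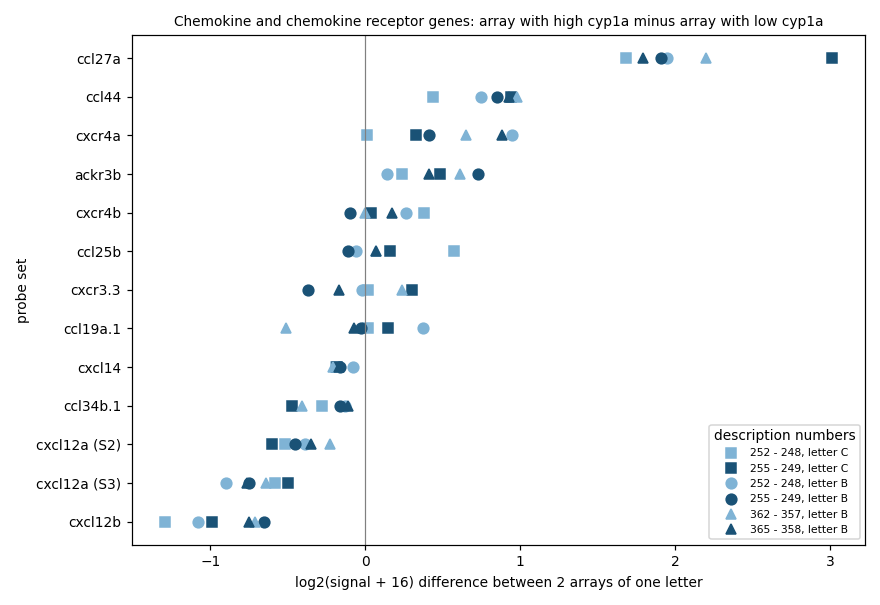
Log2(signal + 16) of an array with high cyp1a minus that of an array with low cyp1a (horizontal axis) for 13 probe sets of chemokine and receptor genes (vertical axis), 6 pairs of arrays within a letter, named by description numbers. All 6 points of ccl27a, ccl44, cxcr4a and ackr3b lie above 0, with 1 of cxcr4a at 0.01. All 6 of cxcl12b, both cxcl12a probe sets, cxcl14 and ccl34b.1 lie below 0, with 1 of cxcl14 at -0.08. Those of cxcr4b spread from -0.1 to 0.38. The share of all probe sets with 1 sign over the pairs was not counted, so nothing is read from these signs.

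Genes on a list drawn up around Cxcr4 signalling did not pass in any of the 7 contrasts. The limit given above for the contrasts by title and number series holds here too. The list holds 31 genes for G protein subunits, arrestins, small GTPases, kinases, hypoxia factors and vegfaa, of which 22 were measured and 21 could be tested. By limma 0 of the 21 passed in the contrast of W252 and W255 with W248 and W249, and the median over their probe sets was -0.01. The largest difference there belonged to vegfaa, the vascular growth factor gene (0.53, SE 0.14, limma adjusted p = 0.0578). Its signals of 105.9 to 134.9 with low and 151.7 to 232.7 with high cyp1a did not overlap. This held for 1 of the 22 genes measured, while 1.15% of all probe sets tested were higher on every array with high cyp1a. The gene was named once its values were known, so nothing is read from this.

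Markers of cell types that make or answer chemokines were summed on each array, over the brightest probe set of each gene. The sums are of raw signal, so the brightest genes weigh most in them. The epidermis list (14 of 17 genes measured) summed to 72400 to 79786 with low and 69363 to 74067 with high cyp1a, which overlap. One of its genes, the keratin gene krt91, did not overlap in its steadier probe set (9532.0 to 10516.7 against 7786.8 to 8939.4) but did in the other (7481.9 to 10808.4 against 5670.6 to 9567.7). The endothelium list (5 of 14) summed to 1485 to 1755 with low cyp1a and 1146 to 1302 with high cyp1a, without overlap. There plvapb, a gene of vessel fenestrae, had 831.0 to 1012.5 with low and 486.5 to 625.4 with high cyp1a. The other 4 genes, kdrl, tie1, flt4 and tek, overlapped, and without plvapb the list summed to 654 to 759 with low and 567 to 718 with high cyp1a, which overlap. The leukocyte list (13 of 14) summed to 2812 to 3319 and 3635 to 4336, but with the mpx probe set whose ID shares a cluster number with cyp1a replaced by the next brightest of that gene, to 2964 to 3386 and 2936 to 3373. Within it mmp13a was higher (197.2 to 415.3 against 89.4 to 186.8) and the lysozyme gene lyz lower (746.4 to 900.9 against 954.3 to 1168.4) with high cyp1a. In that list lyz and cebpa (898.3 to 1059.6 and 905.3 to 1076.7) were the brightest apart from the replaced mpx probe set. The lateral line and hair cell list (5 of 10) overlapped, at 4001 to 4575 and 3792 to 4274. Most of this sum was pvalb9 alone (2519.5 to 3316.8 and 2448.9 to 3116.4), so it says little about the other genes. The 3 of 6 lymphoid and thymus genes measured summed to at most 151, and 0 of them passed the filter. Over all probe sets tested, 1.15% were higher and 0.602% lower on every array with high cyp1a. The marker genes without overlap were named once their values were known, so nothing is read from them. The part of these cell types in the values of ccl27a and cxcl12b was not tested.

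The probe sets most like each gene were found by Pearson's r over the 12 arrays after the mean of each letter was removed, a description in which the arrays fall into the 2 sides of the cyp1a divide. For ccl27a these were pygl, the liver glycogen phosphorylase gene (0.971), the mpx probe set named above (0.970), tiparp, a poly(ADP-ribose) polymerase gene induced through the aryl hydrocarbon receptor (0.968), the sulfotransferase gene sult6b1 (0.965) and nt5c2l1 (0.964). All 5 were higher on every array with high cyp1a, as tiparp was, with 958.2 to 1246.4 against 453.9 to 502.6. The mpx probe set, whose ID shares a cluster number with cyp1a, had 800.3 to 1203.5 against 5.4 to 40.3. The other mpx probe sets overlapped across the divide, the brightest of them with 96.9 to 141.7 against 95.9 to 198.3. Nothing is therefore read from it for the gene mpx. For cxcl12b the probe sets most alike were those of the collagen gene col15a1a (0.975), the keratin gene krt15 (0.972), the cartilage link protein gene hapln1a (0.971), the transcription factor gene sox9b (0.970) and spon2b, which encodes an extracellular matrix protein (0.965). These were lower on every array with high cyp1a, col15a1a for example with 71.5 to 97.8 against 119.7 to 167.8. Between ccl27a and cxcl12b r was -0.939. The nearest for cxcr4b were aagab (0.884), rnf168 (0.849), copa (0.848), usp37 (0.842) and map3k7 (0.840), whose signals overlapped across the divide, and its own r with cyp1a was 0.375.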

How the data were processed

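RNA of larval pools was measured on 12 Affymetrix arrays, of which those with one description number may share a pool. The deposited values are MAS5 signal, a linear intensity scaled by the authors, made with Expression Console, as the deposited processing notes of the submitters list without versions. Trimmed means (2% off each side) deviated from their median over the arrays by at most 0.00225%, so values were kept as deposited and transformed to log2(signal + 16). The table holds 15617 probe sets. After removal of 115 controls, a filter at the 25th percentile of mean log2 signal left 11626. Symbols came from the platform table, updated through RefSeq gene IDs: of 15502 probe sets 10795 had 1 symbol, 135 several and 4572 none. Array values carry no counts, and the number of arrays limits precision.

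Fits used limma 3.58.1 in R 4.3.3 (lmFit, eBayes with a variance trend, two-sided, p adjusted by Benjamini-Hochberg across all 11626, threshold 0.05), with the letter as a batch term, except in the number series contrast, which is all letter B. It was tested on simulated data. Members, gene lists, groupings and contrasts were chosen with earlier results of these data known. The genes named are the members, cyp1a, cyp19a1b, list genes that passed, and the 5 nearest probe sets of each member. Remaining chemokine genes, vegfaa, krt91, plvapb, mmp13a, lyz, mpx and the differences between letters were chosen for mention only once their values were known. P-values measure the spread between these arrays, which may be technical. Alternatives were pseudocounts of 1 and 64, other filters, quantile normalisation, median centring, no trend, other blocks, fewer arrays, and leaving out each array.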

Additional observations from a re-analysis of the deposited data

Results flagged for a closer look

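The difference of the arrays titled E2 from those titled DMSO was larger in letter B than in letter C by 2.99 on the log2 scale (SE 0.39) for ccl27a, which drew attention because the sign differed between letters. Letter C has 1 array per title, its value of -1.06 rests on the signal of 7.5 in E2 1, and cyp1a, beside which the gene was chosen, differed between letters by 5.68. The value is a description, and no p is given.

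For the arrays titled TCDD the same difference between letters was -1.96 for ccl27a (SE 0.39) and 1.23 for cxcl12b (SE 0.20), beside -6.05 for cyp1a. These values too are descriptions, since they follow the divide the genes were chosen on. They were computed after the signals had been seen.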

How the results depend on the processing

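Between W252 and W255 and W248 and W249, ccl27a stayed higher (1.89 to 2.38 with 1 array left out, 2.76 with a pseudocount of 1 and 1.35 with 64, as its low signals are near the pseudocount). In the same contrast cxcl12b stayed lower under every alternative run (-1.07 to -0.93 with 1 array left out). The count of 300 probe sets was 117 without the variance trend, 39 without the batch term and 146 to 347 with 1 array left out. Between W249 and W255 and W248 and W252 it was 2 without the filter and 1 to 4 with 1 array left out. With 1 array left out ccl27a ranged there from -0.46 to 0.03 and cxcr4b from -0.06 to 0.04. A filter at the 50th percentile gave 0, since it removes cyp19a1b, the gene called. It was also too strict for ccl27a and cxcr4b, which then have no value. The interaction had 0 to 4 calls, and ccl27a ranged there from 0.15 to 1.13 and cxcl12b from 0.22 to 0.50. For the title E2 the count was 8 with only the groups compared, 111 in letter B alone and 0 to 30 (without E2 1) with 1 array left out, where ccl27a ranged from 0.43 to 2.18 and cxcl12b from -1.02 to -0.33. In letter B alone ccl27a had 1.93 and cxcl12b -0.86. For TCDD the counts were 1, 126 and 0 to 5, and ccl27a had -0.28 in letter B alone. With 1 array left out ccl27a ranged there from -0.58 to 0.91 and cxcl12b from -0.67 to 0.01. For E2+TCDD (7) the count was 18 with median centring, 0 without the variance trend or the batch term, 183 with only the groups compared, 259 in letter B alone and 0 (without DMSO 2, E2+TCDD 2 or E2+TCDD 3) to 166 (without TCDD 1) with 1 array left out. Between the number series (52) it was 11 without the variance trend and 11 to 38 with 1 array left out. There ccl27a ranged from -0.61 to 0.18, cxcl12b from -0.19 to 0.17 and cxcr4b from -0.07 to 0.10, and cxcl12b was 0.00 with a pseudocount of 1, while cxcl12b and cxcr4b were both 0.00 after quantile normalisation. In the 5 contrasts in which the 3 genes were tested, none of them passed under the alternatives run, except for ccl27a and cxcl12b under the title E2 in letter B alone and ccl27a there without E2 1. Those settings leave only E2 arrays with high cyp1a and are descriptions. The causes were not tested.

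With the replicate number as a block, 19 probe sets were called between the number series, and none of the 3 genes passed there or in the fits by title E2 and TCDD. Within letter B the replicate number coincides with cyp19a1b, at 36.1 to 52.1 in replicates 2 and 256.4 to 287.0 in replicates 3. The block therefore also removes that difference. All 18 pairs of arrays with the same replicate number correlated above 0.1 before the letter was removed (0.143 to 0.603), where replicate 1 is always letter C. Of the 12 pairs among replicates 2 and 3, 0 did so after title and letter were removed (-0.232 to 0.02). That check used the titles, which cyp1a and cyp19a1b contradict, so it cannot decide whether replicate numbers pair the samples. Replicate numbers were not taken as pairs in the main fits. Arrays that share a description number were not checked in this way.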
